A study of Rattus norvegicus with 10 samples.

Results

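The 9 interferon-induced genes described here are Irf1, Irf7, Mx1, Mx2, Oas1a, Isg15, Gbp2, Cxcl10 and Ubd, and their members on the array are the 10 probe sets that the platform annotation pairs with exactly 1 gene bearing one of these symbols. Mx2 has 2 such probe sets and every other gene has 1, out of 20826 probe sets paired with 1 gene and 31042 tested in all. The liver RNA of 10 male Sprague-Dawley rats was measured, 1 Affymetrix rat genome array per rat. The iron-deficient group (5 rats) received a diet with 3 ppm iron for 3 days, and the pair-fed group (5 rats) received the control diet with 48 ppm iron in matched amounts. The labels give an age of 5 weeks for both groups, and a younger age is stated elsewhere for the start of the diet. All rats ate in the daytime only and were killed 1.5 h after feeding. The labels and methods name no infection and no interferon for either group. Values are the log2 robust multiarray average (RMA) signals as deposited. Fold changes are on the log2 scale and run iron-deficient over pair-fed, so a positive value is a higher mean in the iron-deficient rats. A probe set was called up-regulated or down-regulated where rank products over the 25 pairings of arrays across the groups gave a false discovery rate (FDR) under 0.05.

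Interferons are cytokines, and cells release those of type I on sensing viral or bacterial nucleic acid. Type I interferons, and interferon-gamma from T and NK cells, act through JAK kinases and STAT proteins, which switch on a large set of target genes. In liver the targets are made by hepatocytes and by the macrophages, endothelial cells and lymphocytes around them. Type I interferon acts through a complex of STAT proteins and IRF9 that binds the interferon-stimulated response element (ISRE), and genes induced by interferon-gamma often carry the gamma-activated sequence (GAS). Irf1 and Irf7 are transcription factors that are themselves induced by interferon and carry the response further.

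The promoters of the genes on which the results turn are shown because the ISRE is the element that many of these genes share. Each is the RefSeq window of the rat assembly GRCr8, 250 bases before to 50 bases after the start of the gene, in the direction of the gene. Capitals mark matches to GAAANNGAAA, the core of the ISRE, or to TTCNNNGAA, the core of the GAS, on either strand. A window was found for 7 of the 9 members. The Irf7 window is at chr1:205799974-205800273 (minus strand), that of Oas1a at chr12:41330216-41330515 (plus), that of Gbp2 at chr2:234005477-234005776 (plus), that of Cxcl10 at chr14:15988816-15989115 (plus) and that of Ubd at chr20:1392636-1392935 (minus). Rsad2, an antiviral gene outside the 9 members that was down-regulated, is shown with them, at chr6:48788071-48788370 (minus).
Irf7: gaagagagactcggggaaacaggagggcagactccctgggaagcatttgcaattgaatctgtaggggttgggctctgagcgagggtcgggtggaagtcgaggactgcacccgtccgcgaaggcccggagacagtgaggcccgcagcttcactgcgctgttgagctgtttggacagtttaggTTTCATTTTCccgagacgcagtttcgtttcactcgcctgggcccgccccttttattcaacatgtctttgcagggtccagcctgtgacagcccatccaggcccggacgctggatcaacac
Oas1a: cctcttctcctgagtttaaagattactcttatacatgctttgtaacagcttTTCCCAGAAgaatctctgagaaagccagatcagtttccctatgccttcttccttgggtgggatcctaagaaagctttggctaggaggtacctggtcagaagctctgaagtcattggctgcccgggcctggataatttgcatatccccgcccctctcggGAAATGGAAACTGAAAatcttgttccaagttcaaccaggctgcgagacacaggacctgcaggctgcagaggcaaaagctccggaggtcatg
Gbp2: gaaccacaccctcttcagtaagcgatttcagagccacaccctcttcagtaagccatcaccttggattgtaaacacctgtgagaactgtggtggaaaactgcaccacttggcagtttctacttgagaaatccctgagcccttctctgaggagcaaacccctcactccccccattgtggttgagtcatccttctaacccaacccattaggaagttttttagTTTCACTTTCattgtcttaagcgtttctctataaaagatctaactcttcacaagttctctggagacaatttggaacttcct
Cxcl10: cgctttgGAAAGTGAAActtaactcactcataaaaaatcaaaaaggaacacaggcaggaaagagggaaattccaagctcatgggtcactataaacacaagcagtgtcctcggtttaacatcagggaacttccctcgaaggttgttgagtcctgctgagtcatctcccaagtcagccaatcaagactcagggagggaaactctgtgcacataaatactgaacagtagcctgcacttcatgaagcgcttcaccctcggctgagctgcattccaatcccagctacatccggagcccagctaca
Ubd: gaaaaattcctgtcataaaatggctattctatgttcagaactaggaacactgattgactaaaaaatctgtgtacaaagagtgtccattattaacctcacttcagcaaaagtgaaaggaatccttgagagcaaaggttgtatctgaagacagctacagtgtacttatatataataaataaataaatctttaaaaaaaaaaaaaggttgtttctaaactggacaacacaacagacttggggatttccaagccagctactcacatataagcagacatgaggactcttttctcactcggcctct
Rsad2: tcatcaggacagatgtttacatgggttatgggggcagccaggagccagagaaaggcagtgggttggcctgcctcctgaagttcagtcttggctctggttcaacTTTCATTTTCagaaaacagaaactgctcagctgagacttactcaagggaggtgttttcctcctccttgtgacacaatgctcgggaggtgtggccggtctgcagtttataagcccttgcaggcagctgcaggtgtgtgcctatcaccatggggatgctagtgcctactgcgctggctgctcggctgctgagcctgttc

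The ISRE core was in 4 of the 7 member windows (57.1%), those of Irf7, Oas1a, Gbp2 and Cxcl10, against 1312 of 33469 windows of all genes (3.92%). The first base of the match was at -69 in Irf7, at -31 in Gbp2, at -243 in Cxcl10 and at -147 in Rsad2, counted from the start of the gene. Oas1a held 2 matches, at -41 and -35, which overlap, and a GAS core at -199. The GAS core was in 2 of the 7 windows (28.6%), those of Oas1a and Irf1, where it began at -142, against 8.87% of all windows. The windows of Mx1 and Ubd held neither core. In the windows of 85 other interferon genes measured on the array, the ISRE core was in 38 (44.7%) and the GAS core in 19 (22.4%). These matches describe the letters of the windows and no binding was measured.

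After 3 days on the iron-deficient diet, 0 of the 10 member probe sets were up-regulated and 1 was down-regulated, that of Ubd. Over all probe sets tested, 0.303% were up-regulated and 0.573% down-regulated. The other 8 genes had means that differed by at most 0.24 on the log2 scale between the groups, in either direction, while the rats within a group differed from each other by more than that. The members' median log2 fold change was -0.01, against 0.00 over all probe sets, with 4 means higher and 6 lower in the iron-deficient group. With limma, which weighs each change against the spread between rats, no probe set on the array had an adjusted p under 0.05 (0 of 31042, lowest adjusted p 0.397). At an unadjusted limma p under 0.05 stood 0 of the 10 member probe sets, against 6.98% of all probe sets. The groups overlapped for all 10, and did not overlap for 1.29% of all probe sets.

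**Figure D1:**
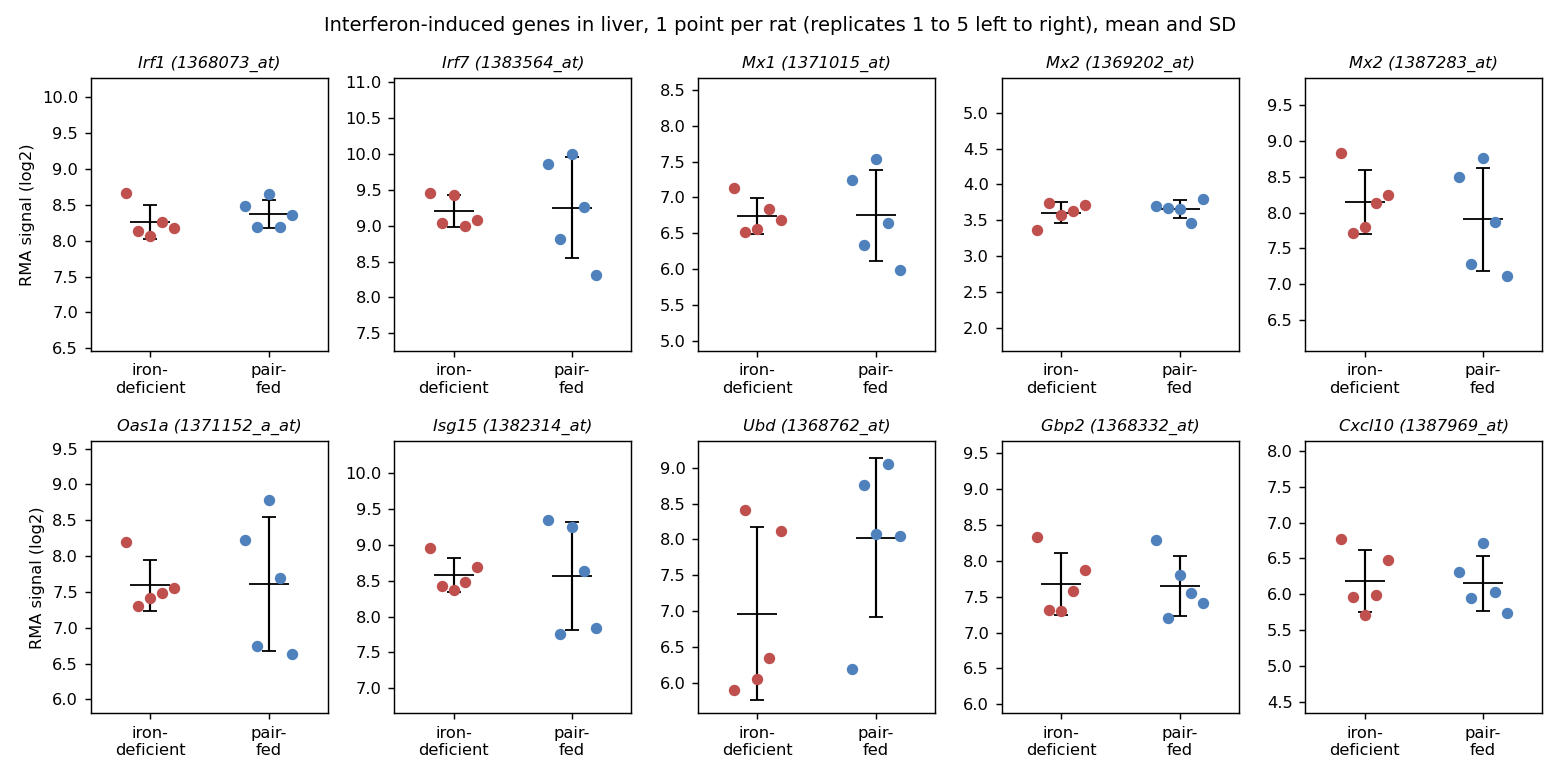
Log2 RMA signal of each of the 10 member probe sets, 1 panel each, with the 5 iron-deficient rats (red) on the left and the 5 pair-fed rats (blue) on the right, in replicate order. Horizontal lines are group means and bars are SD, and every panel spans the same number of log2 units. Ubd ranged from 5.89 to 8.42 in the iron-deficient rats and from 6.19 to 9.05 in the pair-fed rats, and the means of the other genes lay close together.

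Ubd encodes FAT10, a ubiquitin-like protein induced by interferon-gamma and tumor necrosis factor that marks proteins for the proteasome. Its signal was 5.89, 8.42, 6.05, 6.34 and 8.12 in iron-deficient rats 1 to 5, against 6.19, 8.76, 8.08, 9.05 and 8.05 in pair-fed rats 1 to 5. The low values were those of iron-deficient rats 1, 3 and 4 and of pair-fed rat 1, and no rat lay between 6.34 and 8.05. The groups therefore overlapped widely. The means were 6.96 ± 1.21 in the iron-deficient group and 8.03 ± 1.11 in the pair-fed group (SD, n = 5 each). The log2 fold change was -1.06 (SE 0.59, 95% interval -2.35 to 0.22), a ratio of 0.479. Ubd was down-regulated by rank products (FDR 0.000476) at place 21 among all probe sets in that direction. It did not pass limma (adjusted p = 0.764) or a 2-sided exact permutation test of the means (p = 0.190). Rank sums in place of rank products gave an FDR of 0.684. Rank products do not weigh the spread between rats, and only 0.0677% of all probe sets had a larger SD over the 10 arrays than Ubd. Without each rat in turn Ubd remained down-regulated in 10 of 10 rank product runs, with log2 fold changes of -1.52 to -0.79 and limma adjusted p-values of 0.640 to 0.945.

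Irf7, the transcription factor that drives the second wave of type I interferon production, had signals of 9.46, 9.03, 9.43, 9.00 and 9.08 in the iron-deficient rats, against 9.86, 8.82, 9.99, 9.26 and 8.32 in the pair-fed rats. All 5 iron-deficient values lay inside the range of the pair-fed values. The means were 9.20 ± 0.23 in the iron-deficient group and 9.25 ± 0.70 in the pair-fed group (SD, n = 5 each). Its log2 fold change was -0.05 (SE 0.27, 95% interval -0.63 to 0.54, limma adjusted p = 0.984).

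Irf1, which transmits the interferon-gamma response to a second set of genes, was the steadiest member among those above the array median. Its signal was 8.67, 8.14, 8.06, 8.26 and 8.18 in the iron-deficient group, against 8.49, 8.20, 8.65, 8.20 and 8.36 in the pair-fed group. Iron-deficient rat 1 and pair-fed rat 3 were the highest, and the others of both groups overlapped. The log2 fold change was -0.12 (SE 0.12, 95% interval -0.38 to 0.15, limma adjusted p = 0.878).

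Mx1 and Mx2 encode dynamin-like GTPases that block the replication of RNA viruses. Mx1 gave 7.13, 6.51, 6.56, 6.83 and 6.69 in the iron-deficient rats and 7.24, 6.33, 7.53, 6.65 and 5.99 in the pair-fed rats. Both groups centred on the same level, 6.74 ± 0.25 in the iron-deficient group and 6.75 ± 0.63 in the pair-fed group (SD, n = 5 each), with a log2 fold change of -0.01 (95% interval -0.55 to 0.54). The brighter probe set of Mx2 (1387283_at) gave 8.83, 7.72, 7.79, 8.14 and 8.24 in the iron-deficient rats, against 8.50, 7.28, 8.76, 7.87 and 7.11 in the pair-fed rats. Iron-deficient rat 1 was the highest and pair-fed rat 5 the lowest. The log2 fold change was 0.24 (SE 0.31, 95% interval -0.43 to 0.91, limma adjusted p = 0.906), with an FDR of 0.173 for up-regulation. Without pair-fed rat 3 the log2 fold change of this probe set was 0.45 and its FDR 0.0497, the one run without a rat in which a member was up-regulated. The other Mx2 probe set (1369202_at) was dim, with 3.37 to 3.74 in the iron-deficient group and 3.46 to 3.79 in the pair-fed group, below the array medians of 6.19 to 6.22, and it varied little.

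Oas1a encodes an oligoadenylate synthetase, which on binding double-stranded RNA makes the messenger that activates RNase L. Its signal was 8.20, 7.30, 7.42, 7.48 and 7.55 in the iron-deficient rats, against 8.23, 6.74, 8.78, 7.69 and 6.63 in the pair-fed rats. Iron-deficient rat 1 stood above the other 4 of its group, and the pair-fed rats spread over 2.15 log2 units, with rats 1 and 3 at the top and rats 2 and 5 at the bottom. The iron-deficient group averaged 7.59 ± 0.35 and the pair-fed group 7.61 ± 0.93 (SD, n = 5 each), with a log2 fold change of -0.02 (95% interval -0.81 to 0.76, limma adjusted p = 0.995). The sign of this small difference turned when single rats were left out (-0.27 to 0.27).

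Isg15 encodes a ubiquitin-like protein that is coupled to viral and cellular proteins. It gave 8.95, 8.42, 8.37, 8.48 and 8.70 in the iron-deficient group and 9.34, 7.75, 9.25, 8.64 and 7.83 in the pair-fed group. As for Oas1a, pair-fed rats 1 and 3 were above every iron-deficient rat and pair-fed rats 2 and 5 were below every one. The log2 fold change was 0.02 (SE 0.29, 95% interval -0.61 to 0.65, limma adjusted p = 0.995).

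Gbp2 encodes a large GTPase that attacks the vacuoles of intracellular bacteria and parasites, and is a classic target of interferon-gamma. Its signal was 8.34, 7.32, 7.30, 7.58 and 7.88 in the iron-deficient rats, against 8.29, 7.21, 7.81, 7.56 and 7.41 in the pair-fed rats. The highest rat of each group was rat 1, and the groups overlapped over nearly their whole range. The log2 fold change was 0.03 (SE 0.22, 95% interval -0.45 to 0.51, limma adjusted p = 0.987).

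Cxcl10, the chemokine that draws activated T cells through the receptor CXCR3, gave 6.77, 5.97, 5.70, 5.98 and 6.48 in the iron-deficient rats and 6.32, 5.95, 6.72, 6.03 and 5.74 in the pair-fed rats. Iron-deficient rats 1 and 5 and pair-fed rats 3 and 1 were the higher ones. Its log2 fold change was 0.03 (SE 0.21, 95% interval -0.43 to 0.49, limma adjusted p = 0.986). A p that misses the threshold does not show that the groups had the same level, and the 95% intervals of these 8 genes reached as low as -0.81 (Oas1a) and as high as 0.91 (Mx2) on the log2 scale.

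The spread between rats was the larger feature of these genes. Over the 10 arrays, 1.23% of all probe sets had a larger SD than Irf7, 1.55% than Mx1, 0.770% than the brighter Mx2, 0.506% than Oas1a, 0.999% than Isg15, 2.25% than Gbp2, 2.56% than Cxcl10 and 15.2% than Irf1. The same rats were high or low for gene after gene. With each gene centred on its mean over the 10 arrays, the mean of the 8 genes other than Ubd was 0.50, -0.24, -0.21, -0.07 and 0.06 in iron-deficient rats 1 to 5, against 0.49, -0.51, 0.65, -0.05 and -0.62 in pair-fed rats 1 to 5. Iron-deficient rat 1 was among the 3 highest for 8 of the 8 genes, and pair-fed rats 1 and 3 for 7 each. Pair-fed rat 2 was among the 3 lowest for 7 of the 8, pair-fed rat 5 for 6, iron-deficient rat 2 for 5 and iron-deficient rat 3 for 4. Both the highest and the lowest rat of this mean were pair-fed, and iron-deficient rats 2 to 5 lay between -0.24 and 0.06.

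**Figure D2:**
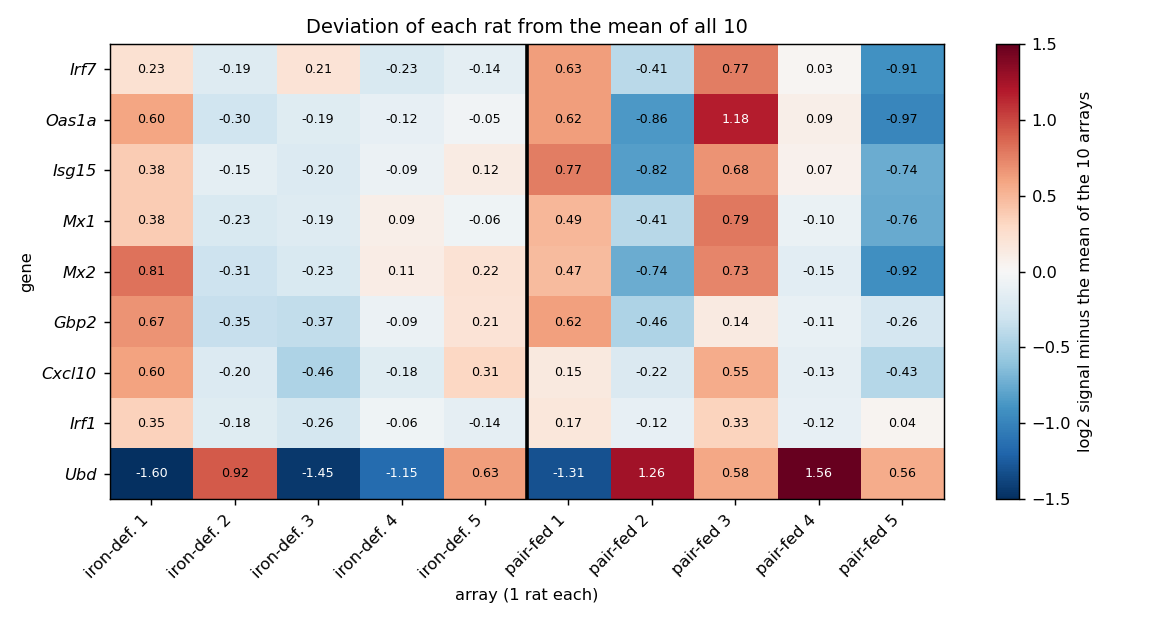
Deviation of each rat from the mean of all 10 arrays (colour and number, log2 units), with 1 row per member gene at its brighter probe set and 1 column per rat, iron-deficient rats left of the black line and pair-fed rats right of it (colours stop at 1.5 in either direction). Pair-fed rat 3 deviated by 1.18 in Oas1a and pair-fed rat 5 by -0.97, and Ubd, in the lowest row, did not follow the others: its lowest value, -1.60, was in iron-deficient rat 1.

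Within the groups, the SD was larger in the pair-fed group for 5 of the 10 member probe sets, against 36.7% of all probe sets. Those 5 were Irf7, Mx1, the brighter Mx2, Oas1a and Isg15. The members' median SD was 0.300 in the iron-deficient group and 0.669 in the pair-fed group, against 0.142 in the iron-deficient group and 0.115 in the pair-fed group over all probe sets. A 2-sided exact permutation test of the rats' distances from their group median, which was added after the values were seen, gave p = 0.0556 for Isg15, 0.0714 for Irf7, 0.0873 for Oas1a, 0.111 for Mx1 and 0.214 for the brighter Mx2 before any adjustment, so that for none of them was the difference in spread past 0.05.

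Irf7 was taken, after the values had been seen, as the gene against which the other members were set across the 10 rats. With it were set Usp18, Rsad2 and Isg20, which made 11 relations, and p-values came from 100000 permutations with Benjamini-Hochberg adjustment over the 11. Usp18 is among the probe sets most like the members' mean, which holds Irf7, and its permutation p of 4.2e-04 counts in the adjustment. The adjusted p-values therefore describe these 10 rats and do not test relations fixed beforehand. Oas1a followed Irf7 closely (Pearson r = 0.927, Spearman rho = 0.903, permutation p = 3e-04, adjusted p = 0.00169). Mx1 did so too (r = 0.917, rho = 0.830, permutation p = 4.6e-04, adjusted p = 0.00169), as did Isg15 (r = 0.894, rho = 0.830, permutation p = 6.9e-04, adjusted p = 0.00190) and Mx2 (r = 0.829, rho = 0.818, permutation p = 0.00333, adjusted p = 0.00733). Without the 2 rats farthest from the median of Irf7, pair-fed rats 3 and 5, r was 0.843 for Oas1a, 0.780 for Mx1, 0.837 for Isg15 and 0.652 for Mx2. With each group centred on its own mean, r was 0.927, 0.918, 0.897 and 0.862 for the same genes in that order. Each group holds 5 rats, too few for a correlation within a group.

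The relations of the other members with Irf7 did not pass, and no difference between correlations was tested. Cxcl10 had r = 0.631 (rho = 0.636, permutation p = 0.0512, adjusted p = 0.0938), and without pair-fed rats 3 and 5 r was 0.326. Gbp2 had r = 0.589 (rho = 0.588, permutation p = 0.0735, adjusted p = 0.116) and Irf1 r = 0.490 (rho = 0.345, permutation p = 0.153, adjusted p = 0.210). Without the same 2 rats r was 0.691 for Gbp2 and 0.538 for Irf1. Ubd had a negative r of -0.373 (rho = -0.382, permutation p = 0.287, adjusted p = 0.319), and without those rats r was -0.621.

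**Figure D3:**
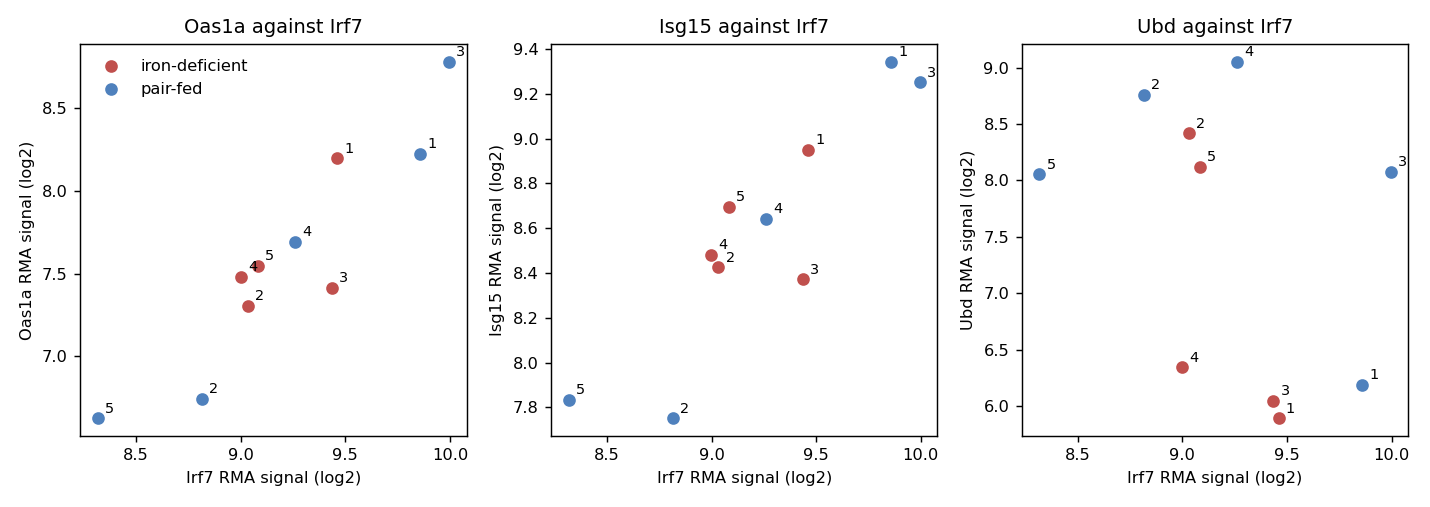
Log2 RMA signal of Oas1a, Isg15 and Ubd (vertical axes) against that of Irf7 (horizontal axis), 1 point per rat with its replicate number, iron-deficient rats in red and pair-fed rats in blue. Oas1a and Isg15 rose with Irf7 across both groups (r = 0.927 and 0.894), with pair-fed rats 1 and 3 at the upper and pair-fed rats 2 and 5 at the lower end, while Ubd did not (r = -0.373).

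The 8 probe sets most like the members, by Pearson r over the 10 arrays with the mean of the 9 centred members, were those of the galactosyltransferase B4galt3 (r = 0.956), Znfx1 (0.945), Usp18 (0.927), the heme-regulated kinase Eif2ak1 (0.918), Ifi44 (0.911), Sp110 (0.911), Herc6 (0.901) and LOC100910973 (0.897). Usp18, which removes ISG15 from proteins, was also the nearest to the mean of the 8 members without Ubd (r = 0.963), followed by Ly6e (0.961), LOC100910973 (0.949), Drp2 (0.944), Slfn4 (0.944), Ifit3 (0.938), Rtp4 (0.932) and Ifi44 (0.929). This second list was added after the values were seen. Both lists hold the highest r among all probe sets paired with 1 gene, over 10 rats, and no p-value was computed for them. B4galt3 varied little, with 8.04 to 8.19 in the iron-deficient group and 8.03 to 8.21 in the pair-fed group. Eif2ak1 spanned 9.35 to 9.59 and 9.30 to 9.71 in the same order. Drp2 was dim, with 4.27 to 4.45 in the iron-deficient group and 4.15 to 4.52 in the pair-fed group. Irf7 is a part of both means, so the r of 0.901 between Usp18 and Irf7 (0.765 without pair-fed rats 3 and 5) restates this likeness. Its signal spanned 8.17 to 9.25 in the iron-deficient group and 7.52 to 9.53 in the pair-fed group, with a log2 fold change of -0.11 (SE 0.34).

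Other genes of the interferon pathway were taken from a list of 145 symbols, of which 105 genes were measured by 151 probe sets paired with 1 gene. Of these probe sets 0 were up-regulated and 4 down-regulated, and 147 did not pass, beside the 0.303% and 0.573% of all probe sets given above. Their median log2 fold change was 0.01, with 81 means higher and 70 lower in the iron-deficient group. By role, the median was -0.03 for 16 probe sets of interferons and their receptors, 0.00 for 23 of signalling proteins and transcription factors, 0.07 for 12 of sensors of viral nucleic acid, 0.00 for 40 of antiviral effectors and 0.06 for 6 of the ISG15 conjugation system. It was 0.01 for 5 of the interferon-gamma GTPases, 0.04 for 8 of chemokines and their receptor, 0.00 for 31 of antigen presentation and 0.00 for 10 of other interferon-gamma targets. At an unadjusted limma p under 0.05 stood 6 of the 151, beside 6.98% of all probe sets.

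**Figure D4:**
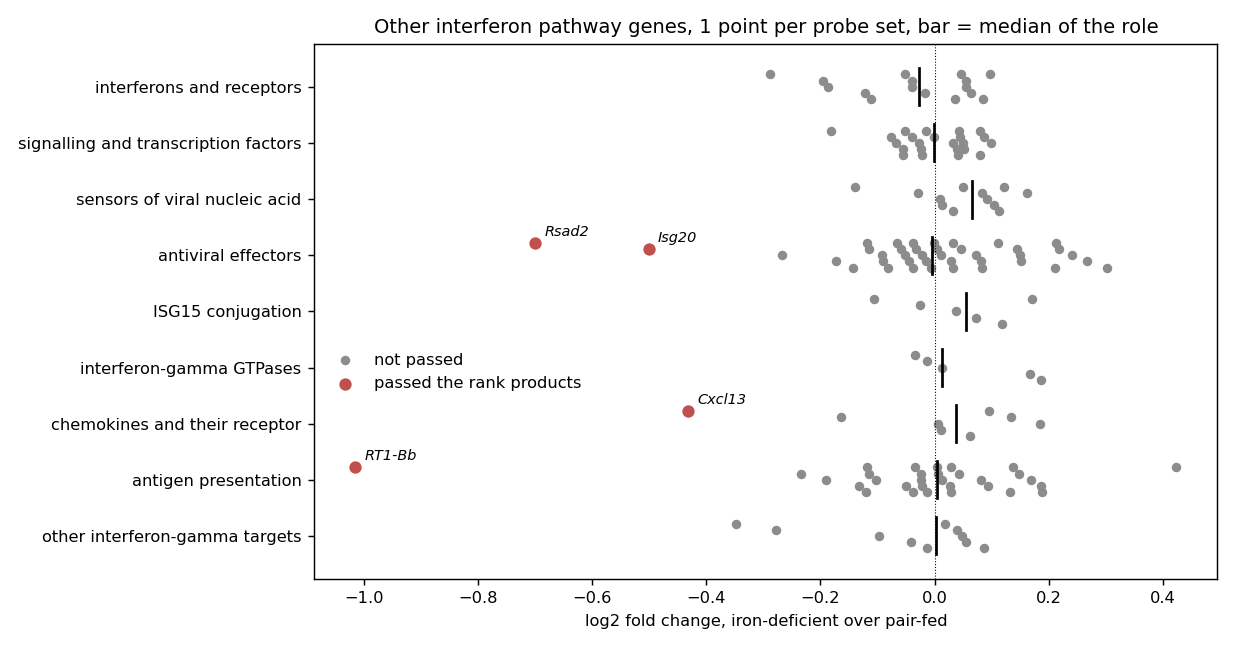
Log2 fold change, iron-deficient over pair-fed, of 151 probe sets of other interferon pathway genes (1 point each), in rows by role, with a black bar at the median of each role. The 4 down-regulated probe sets, in red, are Rsad2 (-0.70), Isg20 (-0.50), Cxcl13 (-0.43) and RT1-Bb (-1.01), and the medians lie between -0.03 and 0.07.

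Rsad2 and Isg20 were the down-regulated antiviral effectors. Rsad2 encodes viperin, a radical SAM enzyme with an iron-sulfur cluster that makes a chain-terminating nucleotide against viral polymerases. It gave 9.01, 7.97, 8.25, 8.91 and 8.38 in the iron-deficient rats, against 8.75, 9.44, 9.67, 9.34 and 8.83 in the pair-fed rats. All 5 iron-deficient rats were below the pair-fed median, and the groups overlapped at iron-deficient rats 1 and 4 and pair-fed rats 1 and 5. The means were 8.51 ± 0.44 in the iron-deficient group and 9.20 ± 0.40 in the pair-fed group (SD, n = 5 each). The log2 fold change was -0.70 (SE 0.22, FDR 0.00273, limma adjusted p = 0.608, unadjusted exact permutation p = 0.0476). Rsad2 remained down-regulated in 10 of 10 runs without a rat (-0.83 to -0.57). It did not track Irf7 across the rats (r = 0.209, rho = 0.139, permutation p = 0.565, adjusted p = 0.565).

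Isg20, an exonuclease that degrades single-stranded RNA, gave 6.43, 6.12, 6.73, 6.49 and 6.93 in the iron-deficient rats, against 7.37, 7.15, 7.05, 6.96 and 6.66 in the pair-fed rats. Only pair-fed rat 5 lay within the range of the iron-deficient rats. The iron-deficient group averaged 6.54 ± 0.31 and the pair-fed group 7.04 ± 0.26 (SD, n = 5 each). This is a log2 fold change of -0.50 (SE 0.15, FDR 0.0181, limma adjusted p = 0.601, unadjusted exact permutation p = 0.0317). The call was lost without iron-deficient rat 2 (FDR 0.0945) and without pair-fed rat 1 (0.113), 2 (0.0791) or 3 (0.0529). Against Irf7 its r was 0.373 (rho = 0.309, permutation p = 0.290, adjusted p = 0.319).

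Cxcl13, the chemokine that guides B cells, gave 8.26, 8.87, 8.44, 7.32 and 8.18 in the iron-deficient rats, against 9.53, 9.60, 8.27, 7.69 and 8.13 in the pair-fed rats. Pair-fed rats 1 and 2 were the highest and the other 3 lay within the iron-deficient range. Its log2 fold change was -0.43 (SE 0.38, FDR 0.0351, limma adjusted p = 0.846, unadjusted exact permutation p = 0.389). Without pair-fed rat 1 or 2 it was -0.21 or -0.19 and no longer passed (FDR 0.411 and 0.473), nor did it without iron-deficient rat 4 (-0.21, FDR 0.247) or 5 (-0.42, FDR 0.0515).

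RT1-Bb encodes the beta chain of a rat major histocompatibility complex class II molecule. At the dim probe set 1371033_at it gave 4.71, 4.50, 4.97, 4.82 and 4.97 in the iron-deficient rats, against 4.67, 6.95, 7.35, 5.20 and 4.88 in the pair-fed rats. The difference came from pair-fed rats 2 and 3, and the other pair-fed rats were near the iron-deficient ones. Its log2 fold change was -1.01 (SE 0.45, FDR 0.00222, limma adjusted p = 0.711, unadjusted exact permutation p = 0.111). This probe set no longer passed without pair-fed rat 2 (-0.73, FDR 0.105) or 3 (-0.63, FDR 0.0885). The brighter probe set of the same gene, 1371065_at, had a log2 fold change of 0.01.

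The largest differences in the other roles did not pass the rank products. Among interferons and receptors these were Ifnar2, a chain of the type I interferon receptor (1380445_at, -0.29, SE 0.24), and Ifnb1, interferon-beta (-0.19, SE 0.10). That probe set of Ifnar2 passed as down-regulated without iron-deficient rat 3 (-0.51, FDR 0.0263), while the other one of the gene had 0.06 (SE 0.14). Among transcription factors they were Irf5 (-0.18, SE 0.09) and Irf2 (1382503_at, 0.10, SE 0.08, with 0.04 and -0.08 at its other probe sets). Trim25, which activates the RNA sensor RIG-I, had 0.16 (SE 0.11), and the helicase Ddx60 had -0.14 (SE 0.30) with 5.95 to 6.52 in the iron-deficient group and 5.30 to 7.30 in the pair-fed group. Of the enzymes that attach ISG15, Uba7 had 0.17 (SE 0.16) at 1379633_a_at, with 0.04 and -0.03 at its other probe sets, and Ube2l6 had 0.12 (SE 0.14). Of the immunity-related GTPases, Igtp had 0.19 (SE 0.20) at 1397304_at and -0.03 (SE 0.14) at its other probe set, and Irgm had 0.17 (SE 0.24). The chemokine Cxcl9 had 0.18 (SE 0.16) and 0.10 (SE 0.18) at its probe sets. RT1-Ba, the class II alpha chain partner of RT1-Bb, had the highest fold change of the list, 0.42 (SE 0.31) at 1377334_at, with an FDR of 0.0695 for up-regulation, and -0.19 to -0.04 at its 3 other probe sets. At 1377334_at it passed as up-regulated without pair-fed rat 1 (0.62, FDR 0.0179) or 4 (0.54, FDR 0.0270).

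Gch1, which makes the cofactor of nitric oxide synthase, had log2 fold changes of -0.28 (SE 0.09) at 1387221_at and -0.35 (SE 0.16) at 1368503_at, and neither probe set passed. In the same order the limma adjusted p was 0.601 and 0.708, and the unadjusted exact permutation p 0.0159 and 0.0952. At 1387221_at the iron-deficient rats gave 11.46, 11.80, 11.74, 11.67 and 11.90, against 12.03, 12.00, 12.07, 11.81 and 12.05 in the pair-fed rats, and only pair-fed rat 4 fell within the iron-deficient range. The list had 1 probe set without overlap between the groups, beside 1.29% of all probe sets. It was that of Il10rb, a receptor chain for interferon-lambda and interleukin-10, with 8.98 to 9.11 in the iron-deficient rats and 9.15 to 9.43 in the pair-fed rats. Its log2 fold change was -0.19 (SE 0.07, limma adjusted p = 0.644), it did not pass the rank products, and it was singled out after its values were seen.

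Whole liver was measured, so a lower number of cells of a type and less RNA per cell cannot be told apart. The hepatocyte markers were high in every rat, with 9 of 9 measured genes above the median of all probe sets and a summed linear signal of 194948 to 200570 in the iron-deficient group and 193787 to 202710 in the pair-fed group. The Kupffer cell and macrophage markers (9 genes) summed to 7479 to 10224 in the iron-deficient group and 7982 to 13064 in the pair-fed group. The T and NK cell markers (16 genes, 12 of them below that median, Cd3d, Cd3e and Cd8a included) summed to 834 to 1037 in the iron-deficient group and 839 to 1200 in the pair-fed group. Pair-fed rat 1 had the highest sum of both lists. The stellate cell markers (8 genes) summed to 6849 to 10285 in the iron-deficient group and 5918 to 7060 in the pair-fed group, with the highest sum in iron-deficient rat 1 and a log2 difference of 0.27. Across the 10 rats the macrophage sum had r = 0.601 with Irf7 and -0.236 with Ubd, and the T and NK cell sum had r = 0.694 with Irf7 and -0.153 with Ubd, given as a description. The stellate cell sum had r = 0.417 with Irf7 and -0.534 with Ubd, and the hepatocyte sum r = 0.337 with Irf7 and -0.614 with Ubd. With Irf7, r was 0.440 for the dendritic cell, 0.214 for the B cell, 0.103 for the neutrophil, -0.03 for the liver endothelial and 0.083 for the bile duct sum. With Ubd it was -0.369, 0.325, 0.200, -0.416 and 0.159 in the same order. Ccl5, a T and NK cell marker above the median of all probe sets, is also on the list of other interferon genes. The part of these cell types in the results was not tested. Below the median of all probe sets were 4 of 5 dendritic cell, 3 of 3 B cell, 5 of 6 neutrophil, 3 of 4 bile duct, 1 of 8 stellate cell and 0 of 6 liver endothelial markers. Of the 10 cell type lists, each at the brightest probe set per gene, only that of red cells held genes that passed. All 5 of its measured genes, out of 9 listed, were down-regulated, beside 0.573% of all probe sets. Iron-deficient rat 1, which was high in all of the 8 genes and lowest in Ubd, also had the largest 3'-minus-5' difference of the Gapdh control probe sets, 0.358, against -0.03 to 0.11 in the other iron-deficient rats and -0.05 to 0.09 in the pair-fed rats. For the actin control probe sets this difference was 1.74 in the same rat, also the largest. It was 1.16 to 1.32 in the other iron-deficient rats and 1.08 to 1.33 in the pair-fed rats. The mean r of that rat's array to the other arrays was the lowest, 0.9915, against 0.9935 to 0.9941 in the others. The part of these differences was not tested. Without iron-deficient rat 1 Ubd had a log2 fold change of -0.79 (FDR 0.00292) and Rsad2 of -0.83.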

How the data were processed

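The values analysed are the log2 RMA signals as deposited by the authors, who quantified the scanned arrays in R and Bioconductor. RMA corrects the background, sets all arrays to 1 distribution and summarises the probes of a set. The RNA was labelled from its 3' end in a single cycle. No depth applies to arrays, and precision is set by the 5 rats per group. Samples were grouped by title. For the control samples the source field names the iron-deficient diet, while title and treatment name the control diet. Food was removed at an hour that differs between labels and methods. The labels name no batch, and array medians ranged from 6.19 to 6.22. All 10 value columns were used and 0 were left out.

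Of 31099 probe sets, 57 controls were left out and no filter on low signal was applied. Genes were named from the platform annotation, which pairs 20826 probe sets with 1 gene, in all 14217 genes. Rank products used 25 pairings and 100 permutations of values within arrays (Python 3.11.15, numpy 2.4.6). Fold changes, SE, intervals and adjusted p-values (Benjamini-Hochberg over all probe sets) came from limma 3.58.1 in R 4.3.3. Single probe sets were also tested by 2-sided exact permutation, whose smallest p for 5 against 5 is 0.00794. Both fits were tested on simulated data, in which values were independent and normal with 1 spread per probe set for both groups. Such data hold no rats that deviate together and no gap like that of Ubd.

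The members and gene lists were chosen with earlier results of these data known. The text names all 9 members at every probe set, every other interferon gene that passed, up to 2 probe sets per role with the largest absolute change, and the 8 probe sets most like the members' mean. Promoters came from RefSeq (GRCr8). Alternatives were leaving out each rat, a replicate block, other centring and normalization, a filter on dim signal, rank sums, limma calls, gene means and an FDR under 0.1. The titles do not state that the replicate numbers pair rats, so the numbers were not taken to do so. Same-numbered rats of the 2 groups did not deviate together (r of -0.04 to 0.09), which cannot show how the rats were matched for feeding.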

Additional observations from a re-analysis of the deposited data

Results flagged for a closer look

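In Oas1a, iron-deficient rat 1 stood far from the other 4 rats of its group. Its signal was 8.20 on the log2 scale, against 7.30 to 7.55 in the others, and the gap to the nearest rat was 0.727 of the whole range of the group. Chance marks about 1 in 20 groups in this way, and 20 groups of 5 rats (10 probe sets in each diet) were looked at.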

How the results depend on the processing

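Over all probe sets, 94 were up-regulated and 178 down-regulated. Leaving out dim probe sets gave 55 and 109, with Ubd still passing and 2 other interferon probe sets down-regulated, those of Rsad2 and Isg20. In that run Cxcl13 did not pass (FDR 0.0511), and the dim probe set of RT1-Bb was left out and so not tested. The member probe set of Cxcl10 and the dim one of Mx2 were left out too. Rank sums gave 4 and 30, with 0 members and 0 other interferon probe sets down-regulated. Limma gave 0 and 0, with 0 members and 0 others down-regulated, while 2168 probe sets had a limma p under 0.05 before adjustment. At an FDR under 0.1 there were 158 up-regulated, of which 1 was an other interferon probe set, RT1-Ba. Centring on array medians, a second quantile normalization and gene means kept Ubd, Rsad2, Isg20, Cxcl13 and RT1-Bb down-regulated, RT1-Bb with -0.50 (FDR 0.0343) as a gene mean, against -1.01 at its dim probe set. The gene mean of both Mx2 probe sets had a log2 fold change of 0.10, against -0.05 at the dim one. Rank products with a replicate block gave 82 and 149, with 1 member and 3 other interferon probe sets down-regulated, and Cxcl13 did not pass (FDR 0.0652). Without each rat in turn the counts were 47 to 95 up-regulated and 91 to 188 down-regulated. Members up-regulated were 0 to 1 (Mx2 without pair-fed rat 3), other interferon probe sets up-regulated 0 to 1 and down-regulated 1 to 5, where Ifnar2 joined without iron-deficient rat 3. In those runs the log2 fold changes were -0.28 to 0.14 for Irf7, -0.20 to 0.19 for Mx1, -0.10 to 0.0094 for the dim Mx2 probe set, -0.27 to 0.27 for Oas1a, -0.18 to 0.21 for Isg15, -0.14 to 0.19 for Gbp2 and -0.12 to 0.17 for Cxcl10, so that their sign was not settled. The sign held in all 10 runs for Irf1 (-0.22 to -0.05) and the brighter Mx2 probe set (0.04 to 0.45). Their limma adjusted p was at least 0.659 and 0.823 in these runs. The causes were not tested. The 5 rats per group, the 3'-biased labelling and the low signal of some probe sets limit what can be seen.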

Other observations

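Ubd ordered the rats differently from the other members. It was lowest in iron-deficient rat 1, at place 10 of 10, where the mean of the other 8 genes was 0.50 above the mean of all rats, and it was highest in pair-fed rat 4, where that mean was -0.05. Pair-fed rat 2, with the second highest Ubd, had a mean of -0.51 for the other genes. Among the genes most like the members, Slfn4 spanned 9.58 to 10.26 in the iron-deficient group and 9.24 to 10.64 in the pair-fed group, and Rtp4 spanned 9.14 to 9.80 in the iron-deficient group and 8.61 to 10.45 in the pair-fed group. The summed linear signal of the red cell markers was 9020 to 14527 in the iron-deficient group and 13361 to 20655 in the pair-fed group, and it had r = -0.121 with Irf7 and 0.493 with Ubd over the 10 rats, given as a description.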
